A study of Mus musculus with 4 samples.

Results

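D2-type striatal projection neurons are the neurons of the striatum that carry the D2 dopamine receptor, and 610 nuclei of this type were found among the 78728 nuclei of 4 single-nucleus RNA libraries of mouse brain, a share of 0.775% (95% exact interval 0.715 to 0.839). A nucleus was counted as D2-type when it held at least 5 unique molecular identifiers (UMIs, each standing for 1 captured RNA molecule) of Pde10a, at least 1 of Rgs9 and at least 1 over Drd2, Adora2a and Gpr6, none of Drd1, none of the glutamate transporters Slc17a7 and Slc17a6, and at most 1 over the glial and vascular genes Mog, Aqp4, Csf1r and Cldn5. The nuclei were thus selected on the measured UMIs, and the levels of these rule genes are given as a description only. The same rule with Drd1 in place of the D2 genes gave 553 D1-type nuclei, and 84 nuclei held UMIs of both kinds.

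Striatal projection neurons are inhibitory neurons that make up most of the striatum and receive dopamine from the midbrain. D1-type cells project directly to the output nuclei of the basal ganglia, and their receptor raises cyclic AMP (cAMP). D2-type cells reach those nuclei through the external globus pallidus. They release enkephalin, and their D2 dopamine receptor lowers cAMP while an adenosine receptor raises it.

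The mice were male C57BL/6J animals that received an adeno-associated virus (AAV9) into the cisterna magna at 4 weeks of age and were analysed at 8 weeks. AAV-VEGF-C carried full-length mouse VEGF-C, a growth factor of lymphatic vessels. AAV-CTRL, the control, carried a soluble part of its receptor VEGFR3 (ectodomains 4 to 7) that does not bind VEGF-C. Nuclei were taken from 5 pooled brains per AAV group, and each pool gave a library labelled as cortical and one labelled as striatal, so there was 1 pool of mice per AAV group and no replicate of the virus. The study used these libraries to ask whether VEGF-C changed gene expression in brain cells.

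The libraries held 17168 nuclei (cortex label, AAV-CTRL), 20370 (cortex label, AAV-VEGF-C), 23724 (striatum label, AAV-CTRL) and 17466 (striatum label, AAV-VEGF-C), with 63165470 to 78332657 UMIs in all and a median of 2272 to 2873 UMIs per nucleus. The striatal genes went against the region labels. Over all nuclei, Adora2a stood at 26.8 and 32.1 UMIs per 1000000 UMIs (CPM) in the cortex-labelled libraries and at 8.04 and 8.37 in the striatum-labelled ones, and Penk stood at 73.0 and 81.3 against 30.0 and 33.8. The cortical projection neuron gene Neurod6 was also higher in the cortex-labelled libraries (62.9 and 64.4 against 5.84 and 3.08), while Tcf7l2, a thalamic transcription factor, was higher in the striatum-labelled ones (297 and 333 against 44.9 and 42.6), as was the hypothalamic peptide gene Pmch (57.6 and 134 against 0.03 in both). The libraries are therefore named by the cortex label and the striatum label, and what tissue each library held was not tested. Of 78130 cell barcodes, 598 occurred in more than 1 library. Among the D2-type nuclei 7 had a barcode that also occurred in another library, and no barcode was shared between D2-type nuclei.

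The share of D2-type nuclei, which the rule ties to Adora2a and the other rule genes, was higher in the cortex-labelled libraries. They numbered 187 in the cortex-labelled AAV-CTRL library (1.09% of its nuclei, 0.939 to 1.26) and 256 in the cortex-labelled AAV-VEGF-C library (1.26%, 1.11 to 1.42). The striatum-labelled libraries held 85 (0.358%, 0.286 to 0.443) and 82 (0.469%, 0.374 to 0.582). On the log2 scale the striatum label stood below the cortex label by -1.60 (-1.99 to -1.23) in AAV-CTRL and by -1.42 (-1.80 to -1.06) in AAV-VEGF-C. D2-type nuclei made up 50, 49.8, 43.8 and 49.7% of the D2-type, D1-type and double nuclei in the 4 libraries in that order, which is the order of libraries used throughout. On that base the striatum label over the cortex label was -0.19 (-0.58 to 0.19) in AAV-CTRL and -0.00 (-0.38 to 0.36) in AAV-VEGF-C. All of these intervals cover counting error only and say nothing of the spread between mice.

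**Figure D1:**
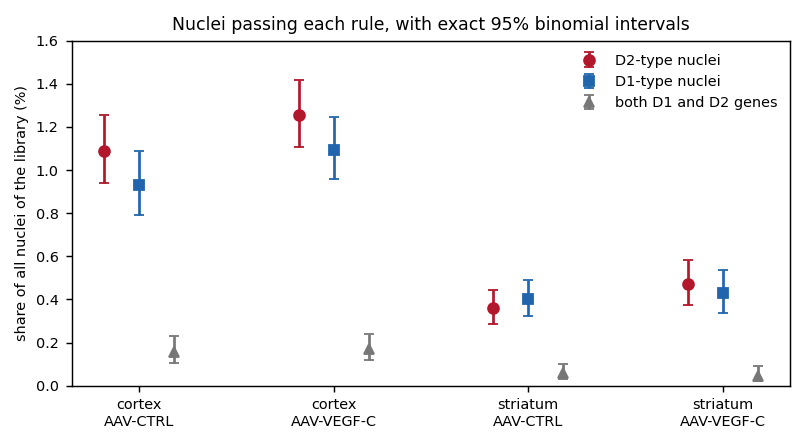
Share of nuclei that were D2-type, were D1-type or held UMIs of both kinds in each of the 4 libraries, in percent of all nuclei of the library, with 95% exact binomial intervals that cover counting error only. Both cortex-labelled libraries lie above both striatum-labelled libraries for either type, and the D2-type share runs from 0.358 to 1.26%.

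The first question of the design was whether VEGF-C went with a different number of these cells. The share of D2-type nuclei in AAV-VEGF-C over AAV-CTRL was 0.21 on the log2 scale under the cortex label (-0.07 to 0.49) and 0.39 under the striatum label (-0.07 to 0.84). Both counting intervals include 0, and with 1 pool of mice per virus there was no test. Among nuclei of at least 2000 UMIs the ratios were 0.13 and 0.16. As a share of the striatal projection neuron nuclei alone they were -0.01 and 0.18. Under the striatum label the interval left out 0 with Pde10a at 3 or more UMIs (0.44, 0.02 to 0.87), with Pde10a at 8 or more UMIs (0.50, 0.0036 to 1.01) and with at least 2 UMIs of the D2 genes (0.56, 0.03 to 1.08).

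The D2-type nuclei were deeper than the average nucleus of their library, with median UMIs of 4596, 4772, 5444 and 6392 and median numbers of genes of 2229, 2327, 2572 and 2980. Their single values ran from 843 to 16552 UMIs. Scrublet, which scores nuclei for likeness to simulated doublets, called 6, 10, 4 and 0 of them. The D2-type nuclei thus sum to 910577, 1311120, 472150 and 575355 UMIs, and the cortex-labelled libraries, with more UMIs, give the narrower intervals.

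Among the genes of the rule, Pde10a, a striatal phosphodiesterase that breaks down cAMP and cyclic GMP (GRCm38 chr17:8525372-8986648, plus strand), stood at 3887, 4016, 2785 and 2508 CPM in the D2-type nuclei, and at 3964, 3734, 2872 and 2495 in the D1-type nuclei. Drd2 itself (chr9:49340627-49408177, plus strand) stood at 529, 570, 392 and 398. Adora2a, which encodes that adenosine receptor (chr10:75316877-75334784, plus strand), stood at 338, 458, 261 and 278. Gpr6, an orphan receptor that raises cAMP (chr10:41069977-41072285, minus strand), was the least abundant, at 85.7, 86.9, 55.1 and 73.0. Drd2 was seen in 529 of the 610 nuclei (86.7%), Adora2a in 465 (76.2%) and Gpr6 in 188 (30.8%). All 3 were seen together in 139 nuclei, and 109 nuclei entered through Drd2 alone, 59 through Adora2a alone and 9 through Gpr6 alone.

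At the edge of the rule, 100 nuclei held exactly 1 UMI of the D2 genes, and they carried 211 CPM of Penk and 323 of Bcl11b. The 510 nuclei with at least 2 such UMIs carried 751 and 559. In the striatum-labelled libraries the nuclei with exactly 1 such UMI numbered 24 and 16, and their Bcl11b level was 124 and 134. Nuclei just inside the Pde10a threshold (5 UMIs, 22 nuclei) had 305 CPM of Penk, and those just outside it (4 UMIs, 28 nuclei) had 299.9. Nuclei with exactly 1 UMI of the D2 genes thus carried less Penk and Bcl11b than those with at least 2. Over the 4 libraries together they carried more of the D1 genes Ebf1 (59.6 against 8.84 CPM) and Tac1 (92.0 against 54.5). Pdyn stood at 16.2 against 7.37, with counting intervals that overlap. Tac1 went the other way in the striatum-labelled AAV-VEGF-C library, at 15.8 against 138 CPM.

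Markers outside the rule were present. Penk, the precursor of enkephalin, had a UMI in 83.4, 87.1, 70.6 and 73.2% of the D2-type nuclei, against 9.70, 11.2, 5.41 and 5.46% of oligodendrocyte-type nuclei, which should lack it and whose median depth was 1984 to 2439 UMIs. With every nucleus thinned to 2000 UMIs the Penk shares were 63.4, 69.5, 51.2 and 51.2%, against 9.76, 5.30, 5.06 and 4.34%. Ppp1r1b (DARPP-32, the dopamine-regulated phosphatase inhibitor) was separated less, at 128, 181, 89.0 and 64.3 CPM against 94.8, 110, 20.6 and 23.0 in oligodendrocyte-type nuclei. The neuronal gene Nrgn reached higher levels in the oligodendrocyte-type nuclei of the cortex-labelled libraries (991 and 1121) than in their D2-type nuclei (668 and 757).

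**Figure D2:**
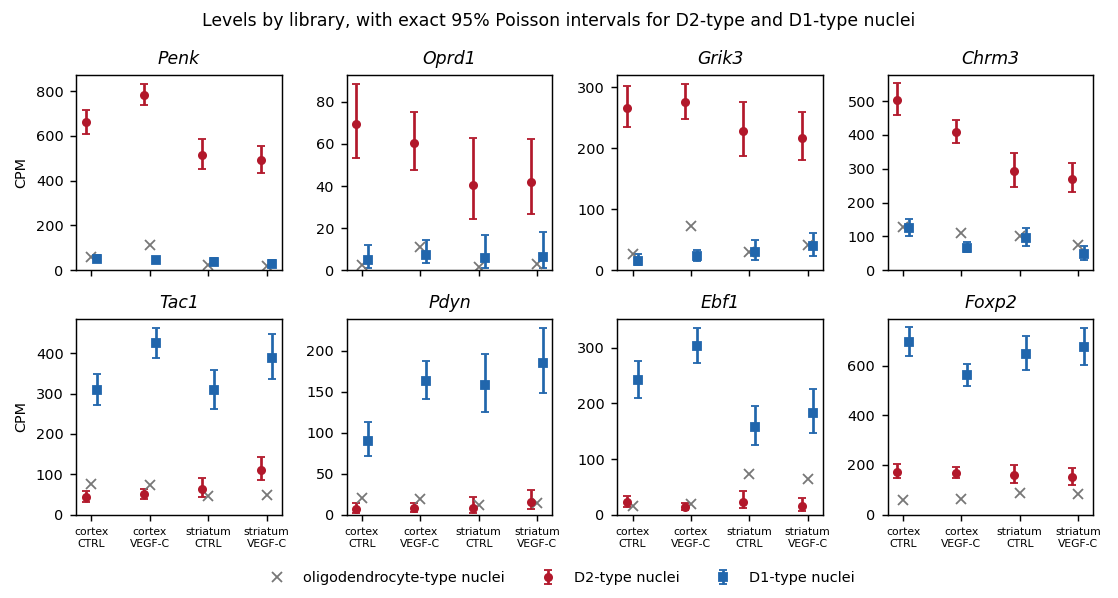
Level in CPM of 8 genes, 1 per panel, in the D2-type (circles), D1-type (squares) and oligodendrocyte-type nuclei (crosses) of each library, with exact 95% Poisson intervals on the first 2 that cover counting error only. Penk lies at 492 to 783 in the D2-type nuclei and at 27.0 to 49.8 in the D1-type nuclei, and Tac1, Pdyn, Ebf1 and Foxp2 lie higher in the D1-type nuclei of every library.

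The comparison of D2-type with D1-type nuclei asks which genes set the pathways apart within the same libraries. D2-type nuclei carried more Penk, Grik3, Oprd1 and Chrm3, and less Pdyn, Tac1, Ebf1 and Foxp2. UMIs were summed per library and type and fitted with edgeR's quasi-likelihood test, with the library as a block and without the genes of either rule. Of 9645 genes tested, 152 (1.58%) were higher and 167 (1.73%) lower in D2-type nuclei at an adjusted p under 0.05, and 134 and 154 of these had the same direction in all 4 libraries. With the library as a block, the p-values set the difference between the types against its variation across these libraries. The quasi-likelihood fit draws each gene's variation toward a value shared over genes, so small p-values do not rest on that gene's libraries alone. The libraries come from 2 pools of mice. Without the cortex-labelled AAV-CTRL library 165 genes were called, and without the cortex-labelled AAV-VEGF-C library 202. DESeq2 also called 105 of the 319 genes and gave no adjusted p for 33 of them.

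Genes known to mark D2-type cells outside the rule formed a list of 12, of which 10 were tested. In it 9 were higher and 1 was lower, with a median log2 fold change of 1.77 against -0.00 over all genes tested. The list and its companions were drawn up with results of these data known, so they describe and do not test. Of the 9 genes known to mark D1-type cells, 8 were tested, 7 were lower, none was higher, and their median was -1.66. Within the striatum-labelled libraries alone 5 of 9 tested D2 genes were higher and 3 of 7 tested D1 genes were lower, while in the cortex-labelled libraries alone 9 of 11 D2 genes were higher. DESeq2 called 5 of 8 D2 genes higher and 3 of 6 D1 genes lower among those for which it gave an adjusted p.

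The neuropeptide genes were widely separated. Penk (chr4:4133531-4138819, minus strand) stood at 660, 783, 517 and 492 CPM in the D2-type nuclei and at 49.8, 44.0, 36.1 and 27.0 in the D1-type nuclei. The groups did not overlap, and Penk was 15.6-fold higher (log2 3.97 ± 0.12 SE, adjusted p = 7.03e-28). Pdyn, the precursor of dynorphin (chr2:129686565-129699844, minus strand), stood at 6.59, 7.63, 8.47 and 15.6 in D2-type nuclei and at 90.0, 164, 158 and 185 in D1-type nuclei (log2 -4.01 ± 0.20, adjusted p = 5.44e-20). Tac1, the precursor of substance P (chr6:7554879-7565834, plus strand), stood at 42.8, 50.3, 63.5 and 111 against 308, 425, 308 and 389 (log2 -2.55 ± 0.14, adjusted p = 1.13e-18). Oligodendrocyte-type nuclei held 74.9, 73.5, 45.8 and 49.0, more than the D2-type nuclei under the cortex label and less under the striatum label. Of 8 neuropeptide genes tested, these were the only ones called, beside 1.58% higher and 1.73% lower over all genes tested.

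Receptors of neurotransmitters came next. Oprd1, the delta opioid receptor that enkephalin binds (chr4:132110726-132144486, minus strand), stood at 69.2, 60.3, 40.2 and 41.7 CPM in D2-type nuclei and at 4.74, 7.47, 5.71 and 6.23 in D1-type nuclei (8.83-fold, log2 3.14 ± 0.27, adjusted p = 4.68e-12). Grik3, a kainate receptor subunit (chr4:125490700-125714173, plus strand), stood at 267, 276, 229 and 217 against 15.4, 23.2, 30.4 and 39.5 (10.0-fold, log2 3.33 ± 0.16, adjusted p = 3.32e-20). Every library showed both genes above its D1-type nuclei without overlap. Its relatives moved less and in both directions, with Grik1 higher by log2 1.01 ± 0.22 (adjusted p = 0.00219, in 3 of 4 libraries) and Grik2 at -0.49 ± 0.06 (adjusted p = 2.27e-07). These were the 3 called among 25 glutamate and GABA receptor genes, beside 1.58% higher and 1.73% lower over all genes tested.

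Chrm3, the M3 muscarinic acetylcholine receptor, stood at 504, 409, 294 and 271 in D2-type nuclei and at 124, 66.4, 95.1 and 47.8 in D1-type nuclei (log2 2.20 ± 0.12, adjusted p = 3.82e-18). Htr2c, the serotonin 2C receptor, was higher by 0.82 ± 0.11 (adjusted p = 7.05e-07), from 301, 281, 578 and 508 against 194, 225, 262 and 193. Drd3, the D3 dopamine receptor, had a log2 fold change of -1.29 ± 0.26 (adjusted p = 0.00111). Among 17 tested receptors of striatal modulators, 3 were higher, Oprd1 and Htr2c among them, and Drd3 was lower. Over all genes tested, 1.58% were higher and 1.73% lower.

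Nt5e (CD73), which makes adenosine outside the cell, stood at 68.1, 50.3, 40.2 and 34.8 CPM in D2-type nuclei and at 22.5, 17.4, 11.4 and 12.5 in D1-type nuclei (log2 1.57 ± 0.21, adjusted p = 7.22e-07). P2ry1, an ADP receptor, was higher by 2.02 (adjusted p = 0.0314), and its adjusted p was 0.0685 without the striatum-labelled AAV-CTRL library. Plxdc1, a plexin-domain membrane protein on the D2 list, was higher by 1.39 ± 0.24 (adjusted p = 9.61e-05), and Gprin3, a G-protein regulator, by 0.43 ± 0.10 (adjusted p = 0.00382).

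The transcription factors divided the types as well. Sp9, which the D2-type lineage needs in development, stood at 16.5, 14.5, 19.1 and 22.6 in D2-type nuclei and at 4.74, 3.32, 5.71 and 4.16 in D1-type nuclei (log2 1.97 ± 0.43, adjusted p = 0.00238). Six3, a homeobox factor of the same lineage, was higher by 0.71 ± 0.19 (adjusted p = 0.0244). On the other side Ebf1 (chr11:44617317-45008091, plus strand) stood at 22.0, 13.0, 23.3 and 15.6 against 242, 303, 158 and 183 in D1-type nuclei (log2 -3.76 ± 0.17, adjusted p = 8.38e-21). Foxp2 (chr6:14901349-15441977, plus strand) stood at 174, 169, 161 and 151 against 695, 561, 649 and 675 (log2 -1.95 ± 0.09, adjusted p = 1.40e-20). Isl1, a LIM-homeobox factor of the D1 lineage, had a log2 fold change of -1.80 (adjusted p = 0.0215). Its adjusted p was 0.120 without the cortex-labelled AAV-CTRL library, 0.244 without the cortex-labelled AAV-VEGF-C library and 0.126 without the striatum-labelled AAV-CTRL library. Zfp521 was at -1.52, lower in 3 of 4 libraries. Eya1, also on the D1 list, was at -0.65 and did not pass (adjusted p = 0.585).

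Genes of the common identity of striatal projection neurons were called in both directions. Of 28 genes known for both types, 3 were higher in D2-type nuclei, Foxp1 and Hpca among them, and 3 were lower (Foxp2, Rarb and Strip2), beside the 1.58% and 1.73% called over all genes tested. The median was -0.07. Ppp1r1b was at -0.06 ± 0.12 (adjusted p = 0.941). Foxp1, the relative of Foxp2, was higher by 0.28 ± 0.07 (adjusted p = 0.00951).

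In the cAMP and dopamine signalling list, 3 of 35 genes tested were higher, none was lower and the median was 0.03. Over all genes tested, 1.58% were higher and 1.73% lower. Pde4b, a cAMP phosphodiesterase, stood at 1253, 1184, 1449 and 1006 CPM in D2-type nuclei and at 701, 564, 974 and 694 in D1-type nuclei (log2 0.76 ± 0.08, adjusted p = 4.36e-10). Its relative Pde4d was higher by 0.87 ± 0.09 (adjusted p = 1.51e-09), and Rgs2, a regulator of G-protein signalling, by 0.60 ± 0.17 (adjusted p = 0.0330). The potassium channel gene Kcnd3 was higher by 0.62 ± 0.11 (adjusted p = 8.06e-05) and the calcium channel gene Cacna1e by 0.30 ± 0.07 (adjusted p = 0.00976). Kcnq5, a subunit of the M-type potassium channel, was lower, at -0.46 ± 0.06 (adjusted p = 6.03e-07), and the other 17 of 20 ion channel genes were not called.

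Several genes of membrane proteins were named by the size of their difference. Unc5d, a netrin receptor, stood at 462, 394, 839 and 514 in D2-type nuclei and at 108, 66.4, 126 and 197 in D1-type nuclei (log2 2.19 ± 0.12, adjusted p = 5.26e-18). Ptprm, a receptor tyrosine phosphatase, stood at 303, 304, 345 and 235 against 58.0, 48.1, 74.2 and 112 (log2 2.13 ± 0.14, adjusted p = 3.44e-15). On the other side Lingo2, a leucine-rich repeat membrane protein, stood at 287, 240, 873 and 730 against 1743, 1684, 2298 and 2252 (log2 -2.10 ± 0.12, adjusted p = 5.26e-18). Within the D2-type nuclei Lingo2 was higher in both striatum-labelled libraries than in both cortex-labelled ones. Cntnap3, of the neurexin superfamily, was at -3.15 ± 0.18 (adjusted p = 2.08e-17).

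Several genes were nearly absent from D2-type nuclei. Il20ra, a cytokine receptor subunit, had 0, 1, 0 and 0 UMIs there and 21, 26, 8 and 10 in D1-type nuclei (adjusted p = 6.32e-08). Impg1, an extracellular matrix proteoglycan, had 3, 1, 0 and 0 UMIs against 44, 52, 9 and 8 (adjusted p = 5.75e-11). Slc35d3 had been put on the D2 list and was lower, at 0, 3.05, 4.24 and 1.74 CPM against 24.9, 34.9, 20.9 and 29.1 (adjusted p = 5.22e-08). Mdk, the growth factor midkine (-3.15 ± 0.28), the syntrophin gene Sntg2 (-2.52) and the ion channel gene Asic4 (-2.51) were lower as well. Upb1, an enzyme of pyrimidine breakdown, was too low to be tested, with 10, 29, 5 and 5 UMIs in D2-type nuclei and 1, 0, 0 and 0 in D1-type nuclei.

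Some called genes rest on few nuclei, on few UMIs or on shared sequence. Otx2os1 was at 2.47 (adjusted p = 0.0131, and 0.137 without the cortex-labelled AAV-VEGF-C library) and the kinase gene Map3k20 at 2.16 (adjusted p = 0.0244), while the transcripts 9330185C12Rik (-2.74) and Gm42705 (-2.35), of no known role, were lower. Mgp and Fn1, which encode extracellular matrix proteins, were called higher, but 28 of 35 and 34 of 36 of their UMIs in the D2-type nuclei of the cortex-labelled AAV-CTRL library came from 1 nucleus. Without the nucleus richest in the gene, neither was tested. Ftl1-ps1 (log2 3.06 ± 0.47, adjusted p = 9.76e-06) is a ferritin pseudogene and may share reads with its parent. Nell1 was higher by 1.99 ± 0.17 (adjusted p = 2.43e-12), and its antisense transcript Nell1os by 2.41 ± 0.52 (adjusted p = 0.00208). Whether the counting used strand is not given in the sources used here, so that pair cannot be told apart.

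Markers of other cell types were compared between D2-type and D1-type nuclei in the same fit. None of 7 excitatory neuron, 7 oligodendrocyte, 3 microglia and 3 interneuron markers tested was called, and 1 of 6 astrocyte markers was, Gpc5 (log2 0.71, adjusted p = 0.00393, in 3 of 4 libraries), beside 319 of 9645 over all genes. The summed oligodendrocyte markers stood at 452, 473, 826 and 935 CPM in D2-type nuclei and at 492, 418, 1054 and 794 in D1-type nuclei, which overlap.

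**Figure D3:**
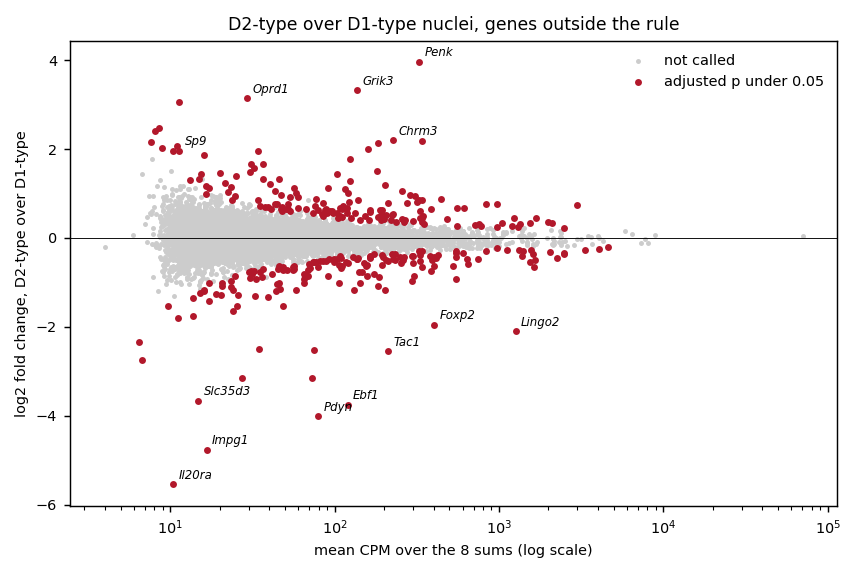
Log2 fold change of D2-type over D1-type nuclei (vertical axis) against the mean CPM over the 8 sums (horizontal log axis) for the 9645 genes tested, with the genes called at an adjusted p under 0.05 in colour. Penk, Grik3 and Oprd1 lie above 3, and Pdyn and Ebf1 lie below -3.

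Within the D2-type nuclei the region labels separated many genes. D2-type nuclei of the striatum-labelled libraries had less of the striatal projection neuron genes and of Nrgn, and more of the thalamic and hypothalamic genes Tcf7l2, Pmch and Oxt. The fit used the 4 libraries with the AAV group as a term, so that each gene's own residual rests on 1 degree of freedom and 2 pools of mice. Here too the variation is drawn toward a value shared over genes, and the small p-values depend on it. Of 9078 genes tested, 431 (4.75%) were higher and 431 (4.75%) lower under the striatum label, and 861 of the 862 had the same direction in both AAV groups. With D2-type nuclei of at least 2 UMIs of the D2 genes 383 of them were also called, and DESeq2 also called 137 and gave no adjusted p for 287. Scaled by library totals alone, 619 were higher and 341 lower, and the median over all genes was then 0.09.

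Of the 28 striatal projection neuron genes, 22 were lower under the striatum label and none was higher, with a median log2 fold change of -0.59 against -0.00 over all genes. Their summed level was 25056, 25688, 18952 and 16979 CPM in D2-type nuclei, and 4255, 4787, 2325 and 2399 in oligodendrocyte-type nuclei, which moved with it. With at least 2 UMIs of the D2 genes 6 were lower and the median was -0.37, and under DESeq2 7 were lower. Bcl11b (CTIP2), a transcription factor of these neurons, stood at 547, 612, 364 and 391 (-0.70), but its adjusted p was 0.134 in nuclei of at least 2 UMIs. Penk was at -0.61 (adjusted p = 7.40e-04), and at -0.33 in those nuclei (adjusted p = 0.227).

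Genes known from dorsal and ventral striatum took opposite sides. All 3 dorsal genes were lower under the striatum label. Cnr1, the cannabinoid receptor (chr4:33924593-33948831, plus strand), stood at 276, 327, 63.5 and 88.6 CPM, with no overlap between the labels (log2 -2.07 ± 0.18, adjusted p = 1.25e-14), and was at -2.02 in nuclei of at least 2 UMIs of the D2 genes. Coch stood at 49.4, 51.9, 23.3 and 17.4 (-1.42, adjusted p = 0.00171). Gpr155 was at -0.69 (adjusted p = 0.0204, and 0.447 in nuclei of at least 2 UMIs). Of 7 ventral genes 5 were higher, Dlk1, Cartpt, Peg10, Zcchc12 and Nnat, with a list median of 1.79. Over all genes tested, 4.75% were called in each direction.

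The ventral genes are also expressed outside the striatum, and they were high in the oligodendrocyte-type nuclei of the same libraries. Cartpt, a peptide precursor, stood at 6.59, 3.81, 40.2 and 57.4 CPM in D2-type nuclei and at 7.49, 3.19, 29.2 and 47.5 in oligodendrocyte-type nuclei. Dlk1, a Notch-related membrane protein, stood at 3.29, 3.81, 19.1 and 60.8 in D2-type nuclei and at 12.5, 0, 25.2 and 36.3 in oligodendrocyte-type nuclei. The part of free RNA in the calls was not tested.

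Other receptor genes differed by label too. Grin3a, an NMDA receptor subunit, stood at 29.7, 23.6, 86.8 and 125 CPM (log2 1.94, adjusted p = 1.04e-08), and 7 of 25 glutamate and GABA receptor genes were higher and 1, Grin2a, was lower (-0.64). Htr2c was higher by 0.81 (adjusted p = 7.45e-06), and the phosphodiesterase gene Pde4d by 1.23 (adjusted p = 6.26e-11). In the cAMP and dopamine list Pde4d was the 1 gene higher and 10 of 35 were lower. Both lists stand beside 4.75% called in each direction over all genes tested. The activity-regulated genes Egr1 and Rgs4 were at -1.59 and -1.48, and Egr1 stood at 272, 232, 49.8 and 38.3 CPM in oligodendrocyte-type nuclei.

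The genes named for the largest differences were not on the striatal lists. Pmch, the precursor of melanin-concentrating hormone, had no UMI in the D2-type nuclei of the cortex-labelled libraries, where 3 UMIs would be 3.29 and 2.29 CPM, and stood at 16.9 and 45.2 under the striatum label. Oligodendrocyte-type nuclei held 0, 0, 41.8 and 115. Oxt, the precursor of oxytocin, stood at 0, 0, 27.5 and 26.1 in D2-type nuclei and at 0, 0, 96.8 and 60.3 in oligodendrocyte-type nuclei.

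Tcf7l2 (chr19:55741820-55933654, plus strand) stood at 3.29, 3.81, 63.5 and 52.1 in D2-type nuclei (log2 3.84 ± 0.44, adjusted p = 2.27e-10) and at 59.9, 78.3, 218 and 256 in oligodendrocyte-type nuclei. On the other side, Nrgn stood at 668, 757, 89.0 and 101 (log2 -2.99 ± 0.17, adjusted p = 3.68e-24) and at 991, 1121, 102 and 92.4 in oligodendrocyte-type nuclei. Neurod6 stood at 29.7, 38.1, 4.24 and 0, with a fold change of -4.15. The other genes named on the higher side were Shox2, AC154782.1, Glra1, Avp, Psd2, Prkcd and Esr1, and on the lower side Tbr1, Npy, Robo3, 3110035E14Rik, Igfbp6, Neurod2, Dkk3 and Atp6ap1l. Of 4 thalamic markers 3 were higher and 1 lower, and of 7 excitatory neuron markers 4 were lower and 1 was higher. Over all genes tested, 4.75% were called in each direction. None of 3 tested microglia markers was called, and of 6 astrocyte markers 2 were higher and 2 lower. The summed thalamic markers, which include Rora, stood at 2617, 2537, 2093 and 1818 CPM in D2-type nuclei and at 392, 658, 865 and 889 in oligodendrocyte-type nuclei, the other way. The part of RNA from other cells in these calls was not tested.

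**Figure D4:**
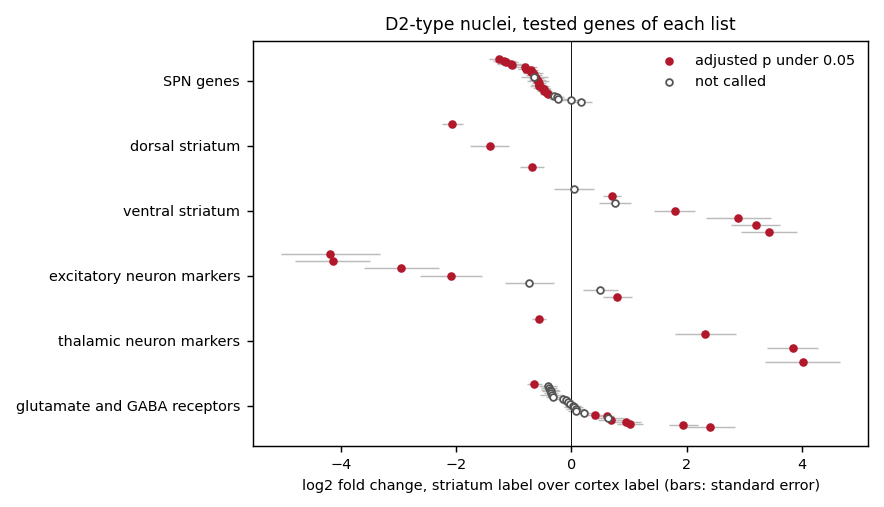
Log2 fold change of the striatum label over the cortex label in D2-type nuclei, with its standard error, for the tested genes of 6 lists, filled where the adjusted p was under 0.05 and open otherwise. The 28 striatal projection neuron genes (SPN genes) have a median of -0.59, the 3 dorsal genes lie below 0 and the 7 ventral genes have a median of 1.79.

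The last comparison set AAV-VEGF-C against AAV-CTRL within each region label. Rasd2, a striatal GTPase, was higher in D2-type nuclei of AAV-VEGF-C under both labels. So were the ribosomal protein genes Rpl41 and Rpl6 and the respiratory chain genes Uqcr11 and Ndufa5. The gene Shisa6 and the haemoglobin genes Hbb-bs, Hba-a1 and Hba-a2 were lower. Without the nucleus richest in each gene, the log2 ratios of these haemoglobin genes under the striatum label were 0.01, -0.29 and 0.26. Shisa6 was then at -1.83. With 1 pool per virus there was no test, and a gene was counted when its CPM differed by at least 1.5-fold. Under the cortex label 308 of 6544 genes (4.71%) were higher and 193 (2.95%) lower. Under the striatum label 285 of 4070 (7.00%) were higher and 188 (4.62%) lower. Under both labels 18 of 4035 (0.446%) were higher, 12 (0.297%) lower and 8 (0.198%) in opposite directions. The 2 libraries of a virus come from the same mice, so the second label is no replicate of the first.

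Rasd2 stood at 115, 186, 48.7 and 93.9 CPM, a log2 ratio of 0.69 (0.35 to 1.03) under the cortex label and 0.95 (0.22 to 1.72) under the striatum label. In D1-type nuclei its ratios were 0.88 and 0.48. The respiratory chain gene Uqcr11 stood at 96.6, 169, 50.8 and 111 (0.81 and 1.13), and Ndufa5, of the same chain, had ratios of 0.68 and 1.35. Rpl41, a ribosomal protein gene, had ratios of 0.71 and 0.77, and Rpl6 of 0.68 and 0.71. Ndufa5, Rpl41 and Rpl6 moved in oligodendrocyte-type nuclei as well, with ratios of 0.67 and 0.62, 0.57 and 0.46, and 0.59 and 0.33. The ratios of Rasd2 and Uqcr11 in those nuclei are not given here.

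The striatal genes had different values under the labels. Of 28 striatal projection neuron genes under the cortex label, 11 had a counting interval above 0 and 2 below it, against 392 and 288 of all 6544 genes, with a median of 0.12 against 0.02 over all genes. Under the striatum label 1 of 27 lay above 0 and 5 below, against 261 and 293 of all 4070 genes, with a median of 0.00 against 0.00. Ppp1r1b had a ratio of 0.49 (0.17 to 0.82) under the cortex label and -0.47 (-1.15 to 0.20) under the striatum label. Penk was at 0.25 (0.10 to 0.39) and -0.07 (-0.32 to 0.18), and in oligodendrocyte-type nuclei at 0.90 and -0.17.

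The 18 higher genes passed the 1.5-fold limit also without the richest nucleus of each gene and library, and 5 of the 12 lower genes did. Hbb-bs, a beta-globin gene of red blood cells (chr7:103826534-103828096, minus strand), stood at 899, 169, 335 and 71.3 CPM, with ratios of -2.42 and -2.23. One nucleus held 352 of its 819 UMIs in the cortex-labelled AAV-CTRL library and 127 of 158 in the striatum-labelled AAV-CTRL library. Without the richest nucleus of each library the ratios were -2.97 and 0.01. The alpha-globin genes Hba-a1 and Hba-a2, near-identical copies that can share reads, were at -2.40 and -0.29 and at -2.54 and 0.26 without those nuclei. Ptgds, the prostaglandin D synthase (chr2:25466709-25470046, minus strand), was at -3.16 and -0.61, and 436 of its 491 UMIs in the cortex-labelled AAV-CTRL library came from 1 nucleus, without which the ratios were -0.24 and -0.21.

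Shisa6, an auxiliary protein of AMPA receptors, was spread over more nuclei, with 52, 27, 38 and 14 UMIs in 23, 16, 17 and 12 nuclei. Its ratios were -1.47 and -1.73, and -1.42 and -1.83 without the richest nuclei. In D1-type nuclei they were 0.75 and 0.35, the other way. Ndst3, an enzyme of heparan sulfate, had ratios of -0.90 and -0.69. Other genes named on the lower side were Gm28928 (-0.71 and -2.70), Rad54l2 and Osbpl10. The others on the higher side were Rpgrip1 (0.86 and 1.17), Rnf7, Ssr4, Nomo1 and Exoc3, of which the last 4 had counting intervals that include 0 under the striatum label.

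**Figure D5:**
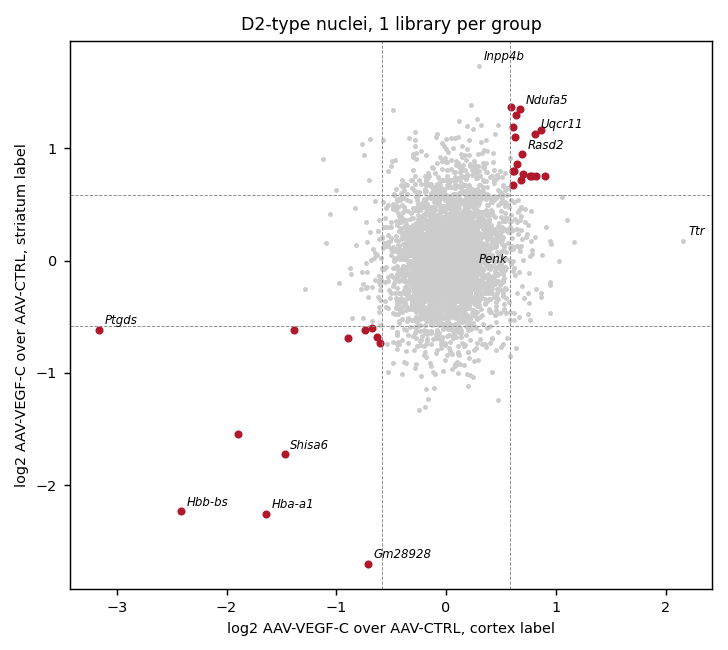
Log2 ratio of CPM of AAV-VEGF-C over AAV-CTRL in D2-type nuclei under the striatum label (vertical axis) against the cortex label (horizontal axis) for genes with at least 50 UMIs under each label and a finite ratio, with the 1.5-fold limits drawn. Rasd2 (0.69 and 0.95) lies past both limits upward, and the haemoglobin genes lie past both downward. Without the nucleus richest in each gene, the haemoglobin genes did not pass the limit under the striatum label.

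Within 1 label alone some of the extreme genes again sat in few nuclei, and others did not. Under the cortex label Ttr, transthyretin of the choroid plexus, was at 2.16, and 103 of its 193 UMIs came from 1 nucleus, without which it was at 1.27. Igfbp5 was at -1.65 and at 0.00 without the richest nucleus. Sdhaf2, an assembly factor of a respiratory chain complex, was at 1.51 and at 1.72 without the richest nucleus. Under the striatum label the collagen gene Col1a1 was at -7.20, with 117 of 121 UMIs in 1 nucleus. Its partner Col1a2 was at -5.41, with 97 of 105 UMIs in 1 nucleus, and Sparc was at -2.46, with 42 of 63. The phosphatase gene Inpp4b was at 1.74 and the mitochondrial gene mt-Nd5 at 1.37, and without the richest nuclei they were at 1.51 and 1.30. Slc5a7, the choline transporter of cholinergic neurons, was at 3.71, and its 48 UMIs in the AAV-VEGF-C library lay in 6 of the 82 nuclei. That library also held 24 UMIs of Chat, the acetylcholine-synthesising enzyme, against 7, 6 and 0 in the others. Cholinergic interneurons of the striatum express Drd2 as well, and their part in this value was not tested.

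The genes of the VEGF system were scarce in D2-type nuclei. Vegfc, the gene carried by the virus, had 6, 2, 1 and 0 UMIs, and Flt4, which encodes VEGFR3, had 2, 2, 3 and 0. Kdr, which encodes VEGFR2, had 1, 4, 1 and 0. At these counts no difference was detectable. Vegfa stood at 19.8, 16.0, 21.2 and 20.9 CPM, where the libraries of a label lie close together. The coreceptor genes Nrp1 (-0.27 and -0.59) and Nrp2 (-0.60 and -0.26) had counting intervals that include 0 under both labels.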

How the data were processed

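Single-nucleus RNA was counted with the 10x Genomics system in 4 libraries. The authors deposited counts of UMIs per gene and nucleus that were not normalized. Per the file headers they were made with Cell Ranger 5.0.1, while the submitters' processing notes name Cell Ranger 5.1.1 and the mouse build mm10. The annotation, the strand setting and the counting of introns are not given in the sources used here. Gene positions are those of GRCm38.

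All 78728 barcodes were used. Nuclei were chosen by the UMI rule, and Scrublet (scanpy 1.11.5) called doublets, which were kept in the main values. Levels (CPM) are UMIs per 1000000 of the summed UMIs of a type in a library. Sums were tested with edgeR 4.0.16 (quasi-likelihood, TMM scaling, filter on low counts, Benjamini-Hochberg adjustment over all genes tested, threshold 0.05), with DESeq2 1.42.0 as an alternative. The scripts were tested on simulated data. A test over single nuclei, as in the study, was not used because nuclei are not replicates. For the AAV groups, log2 ratios have exact conditional binomial intervals and shares have exact Clopper-Pearson intervals, at 95%. These, and the floor of 3 counts, cover counting error only. A gene was compared with at least 50 UMIs over the pair of libraries.

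The members, the gene lists and the tests were chosen with earlier results of these data known. Genes were named from the lists. Also named were the 15 genes in each direction with the largest fold change in all 4 libraries (D2-type over D1-type), the 10 in each direction by region label, the 10 in each direction with the largest smaller ratio of the region labels for the AAV groups, and the 5 in each direction within a label. Gpr52 was not used here, and a few genes of the lists are counted but not reported by name here. Alternatives varied the rule, doublets, depth, scaling, filters, test and libraries.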

Additional observations from a re-analysis of the deposited data

Results flagged for a closer look

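In 4 listed genes the D2-type nuclei of AAV-VEGF-C lay above AAV-CTRL under the cortex label and below it under the striatum label, with counting intervals that leave out 0 on both sides. The difference between the labels was not tested, since each label has 1 library per virus. Meis2, a transcription factor of striatal projection neurons, had log2 ratios of 0.17 and -0.16. Grm3, a metabotropic glutamate receptor, had ratios of 0.24 and -0.47. Grm5, another of that family, had ratios of 0.13 and -0.14. Kcnq5, the M-type potassium channel subunit, had ratios of 0.13 and -0.24. Over the 4035 genes compared under both labels, 29 had intervals on opposite sides of 0 and 96 had them on the same side.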

How the results depend on the processing

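The counts here are of all genes that each alternative called, whether or not the main setting called them. Between D2-type and D1-type nuclei the count was 319 in the main setting and 148 with every nucleus thinned to 2000 UMIs. It was 105 under DESeq2 and 44 with no library block, which leaves the differences between libraries in the error. Leaving out 1 library at a time gave 165 to 265. In alternatives chosen after seeing the data it was 176 in the striatum-labelled libraries alone, 336 in the cortex-labelled ones alone and 303 without the nucleus richest in each gene. By region label the count was 862 in the main setting, 425 with at least 2 UMIs of the D2 genes, 380 after thinning and 138 under DESeq2. For AAV-VEGF-C, 30 genes were past 1.5-fold in both labels in the main setting. That count was 10 after thinning, 145 with at least 20 UMIs, 10 with at least 100 UMIs and 4 at 2-fold. The cause of these moves was not tested. Thinning, stricter minimums and fewer libraries leave fewer UMIs by construction. Every other alternative kept these counts within 1.5 times, the AAV-VEGF-C over AAV-CTRL share ratios and list medians stayed within their counting or order-statistic intervals, and no named gene changed direction in any alternative that gave it an adjusted p. Of the 30 genes named by fold change between the types, 16 had an adjusted p under DESeq2 and all 16 were called. Of the 20 genes named by region label, only 1 had an adjusted p under DESeq2. After thinning 3 had one, and with at least 2 UMIs of the D2 genes 10 did. All of these kept their call, and for the rest these alternatives say nothing of direction. No paired analysis was possible because each group has 1 library and no shared replicate numbers pair them beyond the pool of mice that the library block and the AAV term already hold. Depth limits genes of few UMIs, above all in the 85 and 82 nuclei of the striatum-labelled libraries.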

Other observations

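The immediate early genes, which neuronal activity regulates, summed to 948, 915, 748 and 685 CPM in D2-type nuclei, 849, 880, 639 and 509 in D1-type nuclei and 891, 792, 270 and 234 in oligodendrocyte-type nuclei. Of 14 immediate early genes tested against D1-type nuclei, 1 was higher, Nr4a1, at 45.0, 45.0, 59.3 and 57.4 CPM against 37.9, 29.9, 32.3 and 22.9 (log2 0.66 ± 0.19, adjusted p = 0.0462), and the list had a median of 0.43. No gene of the list was called in any of the 4 fits that left out 1 library, with Pde10a at 3 or more UMIs, after thinning, or under DESeq2. Fos stood at 14.3, 6.86, 10.6 and 10.4 in D2-type nuclei. Arc had 28, 38, 14 and 1 UMIs in the D2-type nuclei of the 4 libraries.

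Among 7 tested genes of neurotrophins and their receptors, the sortilin-type receptors divided, with Sorcs3 higher in D2-type than in D1-type nuclei (log2 0.79 ± 0.11, adjusted p = 1.84e-06), Sorcs2 higher (0.36 ± 0.10, adjusted p = 0.0236) and Sorcs1 lower (-0.42, adjusted p = 3.23e-04). Of 6 striosome genes 1 was lower, Sema5b (-0.55, adjusted p = 0.0215), and none of 6 matrix genes was called. Of 5 tested genes of eccentric projection neurons, a small type that mixes D1 and D2 features, Otof (-0.72) and Adarb2 (-0.85) were lower in D2-type nuclei and none was higher. Over all genes tested, 1.58% were higher and 1.73% lower in D2-type nuclei.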
